A study of Mus musculus with 12 samples.

Results

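The genes of the constitutive proteasome were followed in bone marrow-derived macrophages, the phagocytes that mouse marrow yields in culture. They were taken as the protein-coding genes whose symbol starts with Psma, Psmb, Psmc or Psmd and a digit, without the immunoproteasome genes Psmb8, Psmb9 and Psmb10. That rule found 37 genes among the 54532 listed. Of these, 31 encode the subunits found in nearly every cell: 7 of the alpha ring, 7 of the beta ring, 6 ATPases of the base and 11 non-ATPase subunits of the base and lid. Psmd5, Psmd9 and Psmd10 encode chaperones that help assemble the base, Psma8 a subunit of the testis and Psmb11 a subunit of the thymic cortex, while Psmc3ip only shares the name and acts in meiotic recombination.

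The macrophages came from control mice, labelled WT, or from mice with the GpnmbR150X allele, a premature stop codon in the gene of the transmembrane glycoprotein GPNMB. Both genotypes carried the same strain label, a DBA/2 by C57BL/6 cross taken back to C57BL/6. Cells of each genotype were either untreated or treated with OxLDL, oxidised low-density lipoprotein, which macrophages take up as they become foam cells, and the study asked how GPNMB acts in that process. Each of the 4 groups had 3 libraries of bulk RNA sequencing. No dose or duration of OxLDL, no age of the mice and no source of the replicates was given in the sources used here, so the p-values measure only the spread between these libraries, which may be technical.

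The proteasome breaks down proteins tagged with ubiquitin. Its core particle stacks rings of alpha subunits, which gate the entrance, on rings of beta subunits, of which Psmb5, Psmb6 and Psmb7 encode the proteolytic sites. A regulatory particle caps the core: its base holds a ring of ATPases that unfold the substrate, and its lid holds Psmd14, which removes the ubiquitin chain. In macrophages, interferon signals bring in Psmb8, Psmb9 and Psmb10 in place of the constitutive sites, which changes the peptides made for antigen presentation. The transcription factors encoded by Nfe2l1 and Nfe2l2 are known to act on proteasome genes through antioxidant response elements.

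Promoter windows are shown for the 4 genes chosen after their values were seen: Psmb5, Psmb6 and Psmd8, which rose with OxLDL in WT cells, and Psma6, which fell the most. Each window runs 5′ to 3′ from 250 bases before to 50 bases after a start site, from RefSeq on GRCm38.p6. Capitals mark matches on either strand to the antioxidant response element core TGACNNNGC, the CCAAT box, the E-box CACGTG and the ETS core CCGGAAG. They are Psmb5 at chr14:54617946-54618245 on the minus strand, Psmb6 at chr11:70525107-70525406 on the plus strand, Psmd8 at chr7:29180624-29180923 on the minus strand, and the second of 2 start sites listed for Psma6 at chr12:55398575-55398874 on the plus strand.
Psmb5: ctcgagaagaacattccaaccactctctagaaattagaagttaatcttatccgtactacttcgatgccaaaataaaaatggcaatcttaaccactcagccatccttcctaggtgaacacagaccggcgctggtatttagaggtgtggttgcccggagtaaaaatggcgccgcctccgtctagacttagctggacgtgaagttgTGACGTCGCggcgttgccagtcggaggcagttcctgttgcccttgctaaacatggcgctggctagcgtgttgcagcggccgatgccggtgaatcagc
Psmb6: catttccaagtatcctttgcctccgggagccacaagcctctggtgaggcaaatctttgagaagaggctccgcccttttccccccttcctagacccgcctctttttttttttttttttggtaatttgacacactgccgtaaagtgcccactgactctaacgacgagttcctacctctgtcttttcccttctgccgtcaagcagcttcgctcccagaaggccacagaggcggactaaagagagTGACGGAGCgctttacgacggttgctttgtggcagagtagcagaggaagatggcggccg
Psmd8: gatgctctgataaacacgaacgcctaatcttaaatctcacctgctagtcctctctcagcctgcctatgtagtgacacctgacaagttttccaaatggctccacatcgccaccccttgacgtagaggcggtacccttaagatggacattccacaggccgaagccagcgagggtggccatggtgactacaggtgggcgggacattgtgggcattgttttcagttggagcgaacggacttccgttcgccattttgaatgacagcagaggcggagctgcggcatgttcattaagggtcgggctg
Psma6: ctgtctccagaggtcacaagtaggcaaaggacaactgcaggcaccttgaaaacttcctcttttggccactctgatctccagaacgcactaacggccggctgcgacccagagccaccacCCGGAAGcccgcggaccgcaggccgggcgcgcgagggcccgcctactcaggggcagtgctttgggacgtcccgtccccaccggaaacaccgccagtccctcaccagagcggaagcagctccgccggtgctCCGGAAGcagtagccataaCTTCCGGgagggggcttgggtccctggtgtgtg

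The windows of Psmb5 and Psmb6 each held 1 antioxidant response element core, which began 47 bases before the start of Psmb5 and 9 bases before that of Psmb6. The window of Psmd8 held none of the 4 motifs, and that of Psma6 held 3 ETS cores. The other window of Psma6, at its first start site, held 2 CCAAT boxes and none of the other motifs. The promoter table held 30 of the 37 genes, in 32 windows. The antioxidant response element core was present for 5 of these 30 (16.7%; Psmb5, Psmb6, Psmc6, Psmd9 and Psmd12), against 14.0% of all 27025 genes with a window. The CCAAT box was present for 13 (43.3%, against 41.1% of all genes) and the E-box for 2 (6.67%, against 8.09%). The ETS core, the motif bound by the ETS family of transcription factors, was present for 11 (36.7%), against 9.93% of all genes. Psmc3ip, which only shares the name, was among these 11. The shares of all genes cover every gene with a window, whatever its level, and none was taken among well-expressed genes alone. A match describes these letters in this window and is neither a shown binding site nor a cause.

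The 31 subunits were well expressed. Their mean level over the 12 libraries ran from 50.8 CPM (a gene's counts relative to the library's total after TMM scaling) to 311 CPM, with a median of 83.4 CPM, against 17.7 CPM for all genes tested, and each held at least 591 counts in every library. Per kilobase of annotated exon the highest mean levels were those of Psmb5 (89.4 CPM per kb), Psma6 (82.7), Psmd2 (77.1) and Psmd8 (74.2). The lowest were those of Psmd11 (10.9 CPM per kb), a lid subunit, and Psmb7 (14.9). The order depended on the length used: per kilobase of the longest transcript, Psmb6 came first with 116 CPM per kb and Psmb5 was at rank 6 with 89.4. Psma8 averaged 1.46 CPM in WT cells and Psmc3ip 1.51, and Psmb11 held 3 counts in all and was not tested, which left 36 genes in the tests.

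Total counts per library ran from 14838969 to 18222868. Gpnmb averaged 5330 CPM in WT and 385 CPM in R150X cells, and 12508 CPM and 706 CPM with OxLDL, so it was lower in the libraries labelled R150X under both conditions. The macrophage markers were present in every library, with a summed level of 19453 to 24766 CPM over 8 genes. Most of that sum was Lyz2, at 13888 to 20721 CPM. In untreated WT libraries 12 stromal markers summed to 24394 to 24626 CPM, above the 19453 to 19756 CPM of the macrophage markers there. That order rested on Fn1, which held 8313 to 8578 CPM in these libraries. Without Fn1 the stromal sum lay below the macrophage sum. Markers of T and NK cells summed to at most 1.40 CPM over 4 genes, those of erythroid cells to at most 4.22 CPM over 5, and those of dendritic cells to at most 16.5 CPM over 6. The B cell list (4 genes, 89.5 to 160 CPM) rested on Blnk, a gene macrophages also use. R150X replicate 1 stood apart from the other two R150X libraries, with a chi-square per degree of freedom of 9.23 and 10.1 against them, where counting error alone gives about 1. Between R150X replicates 2 and 3 it was 2.93, and within the other groups it ran from 2.31 to 4.76.

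In untreated cells, proteasome genes were higher in R150X than in WT macrophages. With edgeR's quasi-likelihood test and Benjamini-Hochberg adjustment over the 15338 genes tested, 27 of the 36 rose and none fell, where 18.1% of all genes tested rose and 14.8% fell. Their median log2 fold change was 0.22, against 0.01 for all genes, and in 28 of the 36 every R150X library lay above every WT library, against 24.4% of all genes, and in none did every R150X library lie below (21.6% of all genes). In bulk RNA, fewer cells of a type and less RNA per cell cannot be told apart. The rises took in 5 of 7 alpha subunits, all 7 beta subunits, 5 of 6 ATPases and 9 of 11 non-ATPase subunits, and of the 3 base chaperones Psmd10, with an adjusted p of 0.0176. Psmd1, the large scaffold of the base, was level at a log2 fold change of -0.01 ± 0.05 (SE).

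Summed over the 31 subunits, the level was 3082, 2985 and 2978 CPM in the WT libraries and 3825, 3408 and 3402 CPM in the R150X libraries. The R150X libraries all lay above the WT libraries, and replicate 1 was the highest of them. Relative to its group, R150X replicate 1 had 33 of the 36 genes above the group mean, with a median deviation of 0.11 on the log2 scale. Without it, 17 genes rose and the median was 0.15, and Psmb5, Psmb6, Psmb7, Psmd8, Psma2 and Psma4 were among those 17. Without WT replicate 2 the count was also 17.

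**Figure D1:**
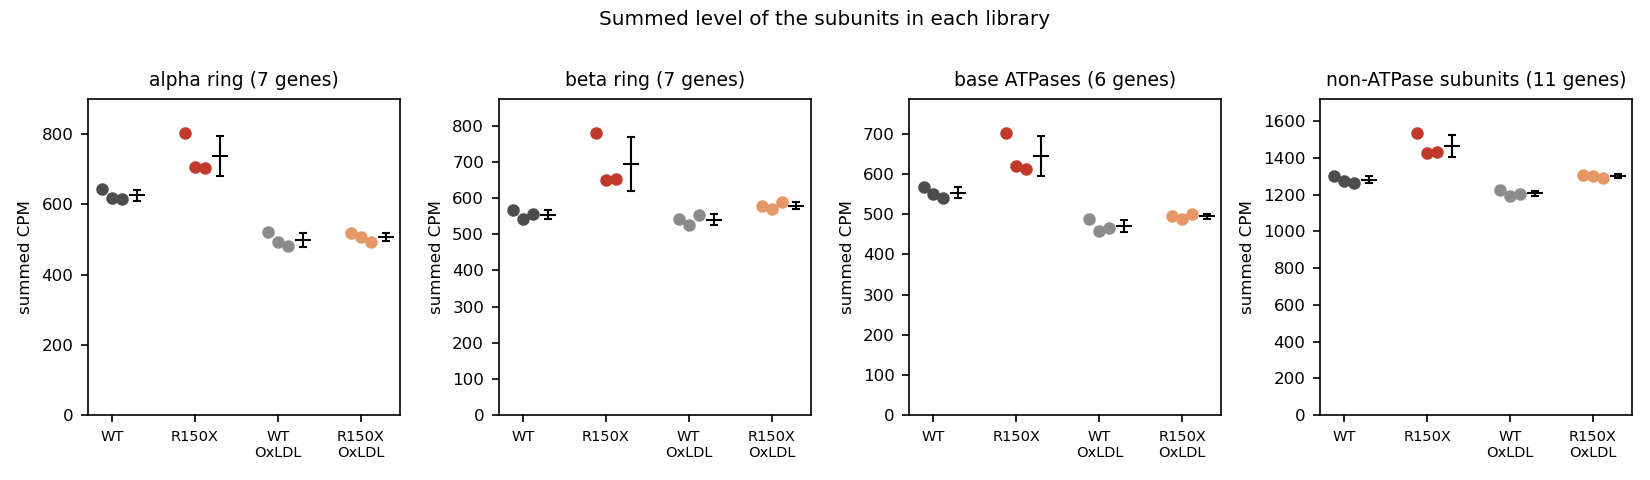
Summed level (CPM, vertical axis from 0) of the alpha ring, beta ring, base ATPase and non-ATPase subunit genes in each of the 12 libraries, by group; points are libraries in the order of replicates 1 to 3 and bars give the mean ± SD of 3. In each panel the untreated R150X libraries lie above the untreated WT libraries, with replicate 1 the highest.

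Transcript length moved with this comparison. The genes tested were put in 3 classes of nearly equal size by their longest transcript, and 23 of the 31 subunits are in the short class (57 to 2348 bases), 8 in the middle class and none in the long class. Among the 1013 short genes of at least 40 CPM, the median log2 fold change was 0.23, 64.3% rose and 5.23% fell. The 23 short subunits had the same median, 0.23, and 20 of them (87.0%) rose. The 8 subunits of the middle class had a median of 0.18, against 0.10 for middle-class genes of at least 40 CPM. Among genes of at least 40 CPM, the median deviation of R150X replicate 1 from its group mean was 0.10 for short genes, 0.02 for the middle class and -0.09 for long genes. When the trend of each library's level on transcript length was taken off, 16 of the 36 rose, with a median of 0.13, and Psmb5, Psmb6, Psmd8, Psma2 and Psma4 were among them. That trend was fitted over genes of all levels, whose short class had a median of 0.14, against 0.23 at 40 CPM or more. It can therefore leave part of the length trend of well-expressed genes in place, and these 16 rises are not shown to be free of it.

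**Figure D2:**
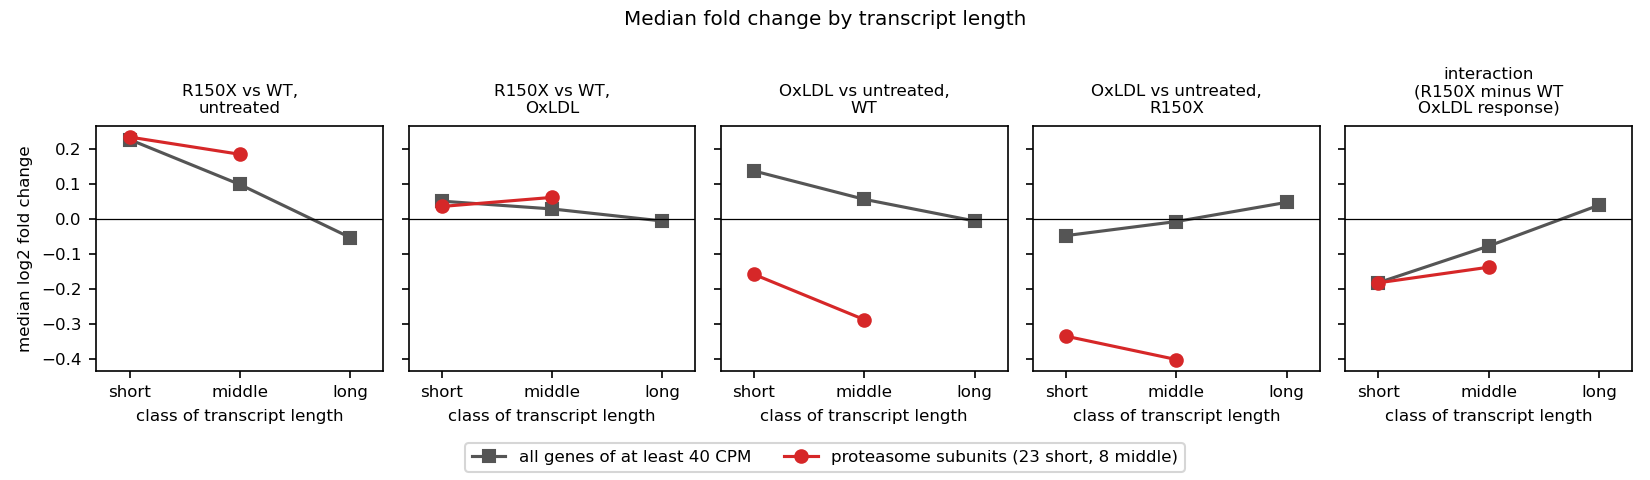
Median log2 fold change (vertical axis) of all genes of at least 40 CPM (grey squares) and of the 31 proteasome subunits (red circles) in the short, middle and long class of longest-transcript length, in 5 comparisons. For R150X against WT in untreated cells and for the interaction the red points of the short class lie on the grey ones (0.23 and -0.18), and in both OxLDL comparisons they lie below them. In the middle class, red and grey points lie at 0.18 and 0.10 for untreated cells and at -0.14 and -0.08 for the interaction.

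The largest rise was that of Psmb6, which encodes the caspase-like site. It stood at 86.9, 81.2 and 81.5 CPM in WT and 140, 121 and 117 CPM in R150X libraries, so the groups were well apart. Its log2 fold change was 0.60 ± 0.07 (SE; adjusted p = 6.19e-07). Psmb5, which encodes the chymotrypsin-like site and is the target of the drug bortezomib, stood at 65.2, 62.5 and 69.0 CPM in WT and 109, 83.5 and 84.3 CPM in R150X libraries. The R150X libraries were all higher, replicate 1 the most (log2 fold change 0.49 ± 0.08, adjusted p = 0.000121). Psmb7, which encodes the trypsin-like site, stood at 55.9, 52.1 and 51.3 CPM in WT and 69.2, 58.3 and 61.4 CPM in R150X libraries. These groups did not overlap but lay close together (log2 fold change 0.24 ± 0.07, adjusted p = 0.00722), and the call was lost by library size alone (adjusted p = 0.0512).

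Psmd8, a lid subunit, stood at 167, 164 and 164 CPM in WT and 247, 216 and 211 CPM in R150X libraries. Every R150X library was above every WT library, and the WT libraries differed little (log2 fold change 0.45 ± 0.05, adjusted p = 2.01e-06). Psma2, of the alpha ring, stood at 88.0, 86.2 and 88.8 CPM in WT and 118, 107 and 103 CPM in R150X libraries, without overlap (0.32 ± 0.06, adjusted p = 0.000174). Psma4, also of the alpha ring, stood at 87.4, 79.2 and 78.7 CPM in WT and 108, 98.5 and 100 CPM in R150X libraries, again without overlap (0.32 ± 0.06, adjusted p = 0.000197). Psma4 shares 114 exon bases with a gene on the opposite strand, and whether the counting used strand was not given in the sources used here.

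Under OxLDL, 2 of the 36 genes passed the test between the genotypes, Psmd8 and Psmb6, both higher in R150X cells, where 6.10% of all genes rose and 6.92% fell. The median log2 fold change of the 36 was 0.06, against 0.00 for all genes. Among short genes of at least 40 CPM, 12.3% rose and 8.09% fell, against 2 and 0 of the 23 short subunits. In 8 of the 36 every R150X library lay above every WT library (15.0% of all genes), and in none below (15.0% of all genes). Psmd8 stood at 224, 228 and 224 CPM in WT and 286, 295 and 297 CPM in R150X libraries given OxLDL, so that the groups were far apart (log2 fold change 0.38 ± 0.05, adjusted p = 2.90e-05). Psmb6 stood at 106, 105 and 116 CPM in WT and 129, 125 and 138 CPM in R150X libraries. The groups did not overlap (0.26 ± 0.07, adjusted p = 0.00933), but the call was lost without WT OxLDL replicate 2 (adjusted p = 0.0571) or R150X OxLDL replicate 3 (adjusted p = 0.0586), and over all alternatives its adjusted p ran up to 0.0586. Psmb5 (log2 fold change 0.13 ± 0.08, adjusted p = 0.36) and Psmb7 (0.09 ± 0.07, adjusted p = 0.475) did not pass, and their libraries overlapped between the genotypes.

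In WT cells OxLDL was followed by lower levels of most proteasome genes. Of the 36, 22 fell and 3 rose, where 23.1% of all genes fell and 22.7% rose, and the median log2 fold change was -0.18, against 0.01 for all genes. Those that fell included 5 of 7 alpha subunits, 4 of 7 beta subunits, 5 of 6 ATPases, 7 of 11 non-ATPase subunits and the chaperone gene Psmd10, and those that rose were Psmd8, Psmb6 and Psmb5. In 24 of the 36 every OxLDL library lay below every untreated library (27.9% of all genes) and in 4 above (28.0%). Short genes of at least 40 CPM had a median of 0.14, with 46.4% risen and 21.9% fallen, while the 23 short subunits had a median of -0.16, with 3 risen and 13 fallen. With the length trend taken off, 27 fell and 2 rose. The count of falls was 13 without WT replicate 1, 14 without WT OxLDL replicate 2 and 17 to 19 without any other of these libraries. Several of the smaller falls thus no longer passed with 1 library fewer.

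**Figure D3:**
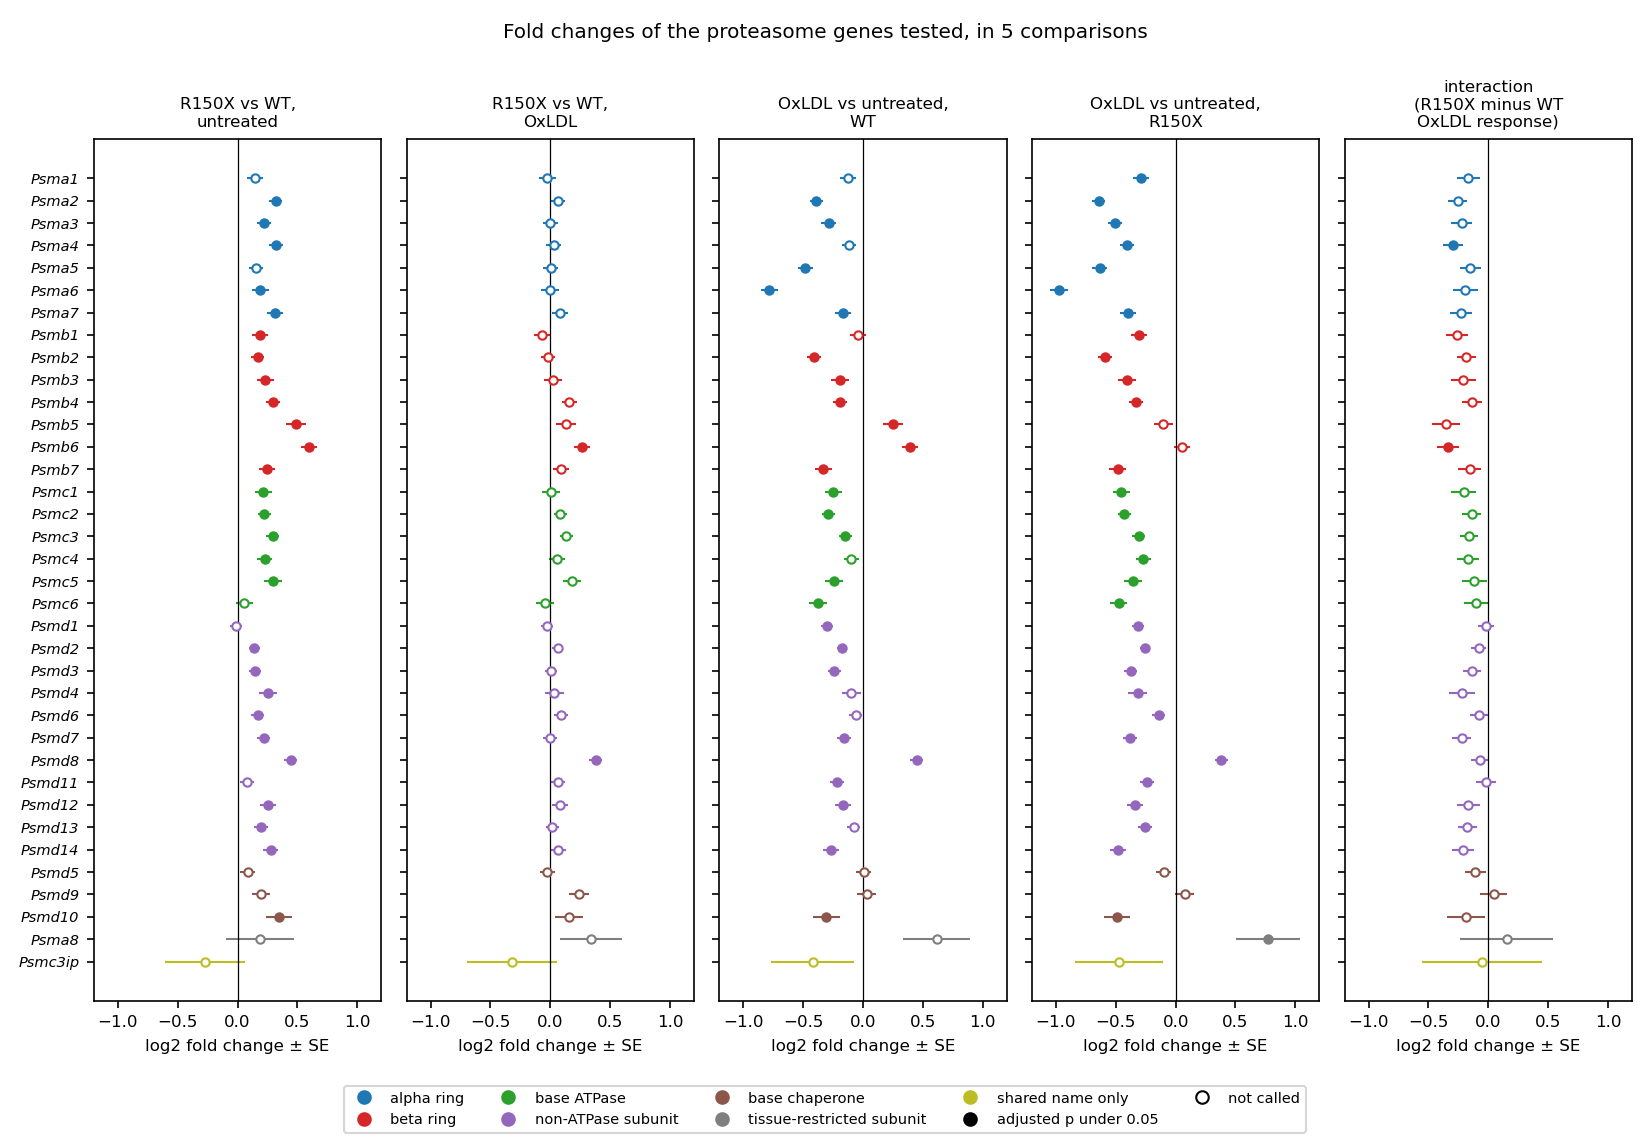
Log2 fold change (horizontal axis) with its SE for the 36 proteasome genes tested, grouped and coloured by role, in 5 comparisons; filled points passed an adjusted p of 0.05 and open points did not. Most points lie right of 0 for R150X against WT in untreated cells and left of 0 in both OxLDL comparisons, where Psma6 lies farthest left; Psma8, Psmd8, Psmb6 and Psmb5 lie farthest right in WT, and Psma8 and Psmd8 in R150X cells.

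Psma6, an alpha ring subunit, fell the most. It stood at 132, 121 and 118 CPM in untreated WT libraries and at 80.3, 68.1 and 67.0 CPM with OxLDL, which is far below every untreated library and 58.2% of the untreated level by the fitted fold (log2 fold change -0.78 ± 0.07, adjusted p = 1.22e-08). Psma5, another alpha subunit, stood at 64.5, 65.3 and 60.0 CPM untreated and 48.3, 44.9 and 42.7 CPM with OxLDL (-0.48 ± 0.06, adjusted p = 1.49e-06). Psmb2, a beta subunit without a proteolytic site, stood at 64.6, 66.9 and 63.8 CPM untreated and 48.1, 48.3 and 50.9 CPM with OxLDL (-0.41 ± 0.06, adjusted p = 5.22e-06). None of these groups overlapped. Psma2 fell from 88.0, 86.2 and 88.8 CPM to 70.0, 65.1 and 65.7 CPM (-0.39 ± 0.06, adjusted p = 9.62e-06). Psmd1, which did not pass between the genotypes, fell from 152, 155 and 147 CPM to 124, 127 and 119 CPM (-0.30 ± 0.05, adjusted p = 2.58e-05).

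The 3 genes that rose in WT cells went against the rest. Psmd8 went from 167, 164 and 164 CPM to 224, 228 and 224 CPM, with very little spread in either group (log2 fold change 0.45 ± 0.05, adjusted p = 5.50e-07). Psmb6 went from 86.9, 81.2 and 81.5 CPM to 106, 105 and 116 CPM, without overlap (0.39 ± 0.07, adjusted p = 5.34e-05). Psmb5 went from 65.2, 62.5 and 69.0 CPM to 78.1, 75.8 and 80.7 CPM (0.25 ± 0.08, adjusted p = 0.0171). The groups of Psmb5 did not overlap, but its call was lost by library size alone (adjusted p = 0.172), with the length trend taken off (0.0825) and without WT replicate 2 (0.0749) or WT OxLDL replicate 3 (0.0585). Psmb7, the third proteolytic subunit, fell, from 55.9, 52.1 and 51.3 CPM to 41.3, 40.2 and 45.3 CPM (-0.33 ± 0.07, adjusted p = 0.000484). Psmb7 shares 405 exon bases with Nek6 on the opposite strand.

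**Figure D4:**
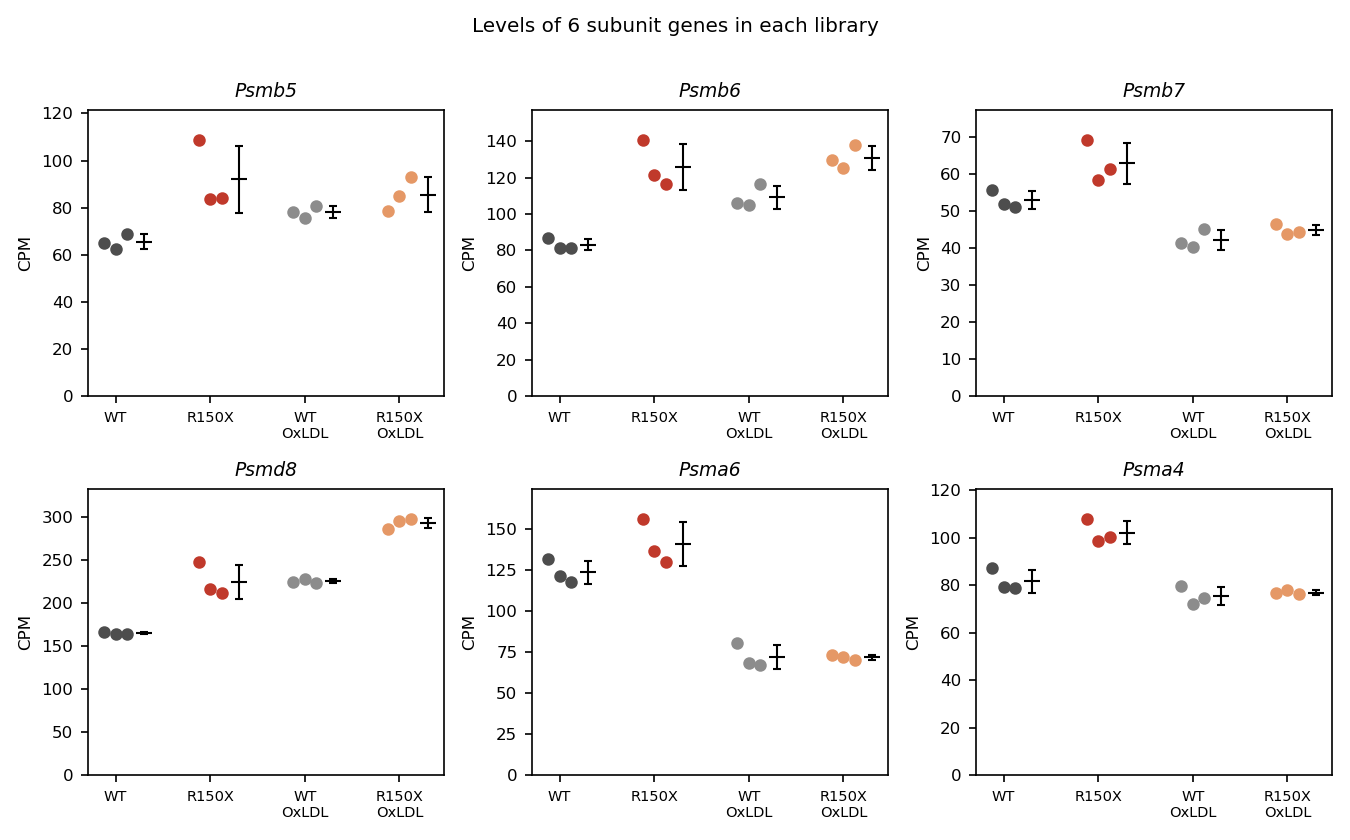
Level (CPM, vertical axis from 0) of the proteolytic subunit genes Psmb5, Psmb6 and Psmb7, of Psmd8, which rose with OxLDL in both genotypes, and of Psma6 and Psma4, in each library by group; points are libraries in the order of replicates 1 to 3 and bars give the mean ± SD of 3. With OxLDL the points of Psma6 fall to between 67.0 and 80.3 CPM in both genotypes, while those of Psmd8 rise to at least 224 CPM.

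In R150X cells, too, OxLDL was followed by lower levels of most proteasome genes. Of the 36, 29 fell and 2 rose, where 20.6% of all genes fell and 18.4% rose, and the median log2 fold change was -0.35, against 0.00 for all genes. All 7 alpha subunits, all 6 ATPases, 5 of 7 beta subunits and 10 of 11 non-ATPase subunits fell, and so did Psmd10. In 30 of the 36 every OxLDL library lay below every untreated library (23.7% of all genes) and in 2 above (22.7%). Short genes of at least 40 CPM had a median of -0.05, with 21.6% risen and 34.4% fallen, while the 23 short subunits had a median of -0.34, with 1 risen and 20 fallen. Without R150X replicate 1, whose untreated levels were the highest, the median was -0.28, and with the length trend taken off 28 fell and 2 rose. Over the alternatives and the libraries left out, the number of falls ran from 28 to 29.

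Psma6 again fell the most, from 156, 137 and 130 CPM to 73.1, 71.9 and 70.0 CPM, 50.9% of the untreated level (log2 fold change -0.97 ± 0.07, adjusted p = 4.14e-10). The untreated and OxLDL libraries were far apart, and the OxLDL libraries of WT and R150X cells overlapped. Psma2 fell from 118, 107 and 103 CPM to 69.9, 71.5 and 68.4 CPM (-0.64 ± 0.06, adjusted p = 6.57e-09). Psmb2 fell from 77.5, 71.6 and 70.3 CPM to 48.5, 50.6 and 46.4 CPM (-0.59 ± 0.06, adjusted p = 2.76e-08). No untreated library of these genes overlapped with an OxLDL library. Psma5 fell by 0.63 ± 0.06 (adjusted p = 2.93e-08), to 45.3, 46.1 and 44.8 CPM from 74.3, 66.1 and 71.1 CPM, and Psma3, also of the alpha ring, by 0.51 ± 0.06 (adjusted p = 6.32e-07), to 56.0, 54.4 and 51.2 CPM from 80.1, 75.7 and 74.1 CPM. Psmb7 fell by 0.48 ± 0.07 (adjusted p = 5.64e-06), to 46.6, 43.9 and 44.4 CPM.

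Psmd8 rose in R150X cells too, from 247, 216 and 211 CPM to 286, 295 and 297 CPM (log2 fold change 0.38 ± 0.05, adjusted p = 5.41e-06), and was the only one of the 31 subunits to do so. Psma8, the testis subunit, was the other gene that rose, from 1.60, 1.75 and 1.65 CPM to 3.39, 3.15 and 2.01 CPM. Its call (0.77 ± 0.27, adjusted p = 0.0259) was lost when any of 5 of the 6 libraries was left out, with an adjusted p of up to 0.113. Psmb6 (log2 fold change 0.06 ± 0.07, adjusted p = 0.543) and Psmb5 (-0.10 ± 0.08, adjusted p = 0.347) did not pass. Their OxLDL libraries, 129, 125 and 138 CPM for Psmb6 and 78.7, 84.9 and 93.2 CPM for Psmb5, overlapped with the untreated ones. Without R150X replicate 1 Psmb6 passed, at 0.14 (adjusted p = 0.0497), and Psmb5 changed sign to 0.028 (adjusted p = 0.762).

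The test of the difference between the OxLDL responses, R150X minus WT, was passed by 2 of the 36 genes, both negative, where 5.19% of all genes tested were called negative and 3.13% positive. The median difference was -0.17 for the 36 and -0.02 for all genes. Short genes of at least 40 CPM had the same median as the 23 short subunits, -0.18, and 24.3% of these short genes were called negative and 1.58% positive. The 8 subunits of the middle class had a median of -0.14, against -0.08 for middle-class genes of at least 40 CPM. The 2 genes were Psmb6 and Psma4. Psmb6 rose with OxLDL in WT (0.39) and did not pass in R150X cells (0.06, adjusted p = 0.543), a difference of -0.34 ± 0.09 (adjusted p = 0.0282). Psma4 did not pass in WT (-0.12 ± 0.06, adjusted p = 0.113) and fell by 0.41 ± 0.06 in R150X cells (difference -0.29 ± 0.08, adjusted p = 0.0286). Psma4 reached 79.6, 72.2 and 74.5 CPM in WT and 76.5, 77.9 and 76.2 CPM in R150X libraries given OxLDL, which overlapped. Neither passed by library size alone, with the length trend taken off (adjusted p = 0.114 for Psmb6 and 0.175 for Psma4), or without WT replicate 2, WT replicate 3, R150X OxLDL replicate 1 or R150X OxLDL replicate 2, and Psmb6 also failed without WT OxLDL replicate 3, and Psma4 without WT OxLDL replicate 1 or R150X OxLDL replicate 3. Psmb5 did not pass (difference -0.36 ± 0.12, adjusted p = 0.065), but passed with DESeq2 (0.0489), with no filter on low counts (0.00393) and without R150X replicate 2 (0.0271), R150X replicate 3 (0.0332) or R150X OxLDL replicate 3 (0.0379). Psmd8 had a difference of -0.07 ± 0.08 (adjusted p = 0.673).

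Markers of other cells moved with the same groups. The 12 neutrophil markers summed to 558 to 591 CPM in WT, 283 to 310 CPM in R150X, 134 to 150 CPM in WT with OxLDL and 42.4 to 43.8 CPM in R150X with OxLDL. Of the 10 tested, 9 fell with genotype in untreated cells (14.8% of all genes) and 8 with genotype under OxLDL (6.92%). With OxLDL, 6 fell and 1 rose in WT (23.1% and 22.7% of all genes), and 7 fell in R150X (20.6%). In the interaction 6 were called negative (5.19% of all genes). The 12 stromal markers, collagens and other matrix genes, summed to 24394 to 24626, 14102 to 15646, 10916 to 11881 and 8759 to 9138 CPM in the same order. Of these 12, 10 fell and 1 rose with genotype in untreated cells (14.8% and 18.1% of all genes), and 5 fell with genotype under OxLDL (6.92%). With OxLDL 9 fell in each genotype (23.1% of all genes in WT and 20.6% in R150X). In the interaction 6 were called positive (3.13% of all genes) and 1 negative (5.19%). Among the 8 macrophage markers, 7 were called negative in the interaction (5.19% of all genes). With genotype 4 of them rose and 1 fell in untreated cells (18.1% and 14.8% of all genes), and 5 fell under OxLDL (6.92%). With OxLDL 3 rose and 3 fell in WT (22.7% and 23.1% of all genes), and 3 rose and 5 fell in R150X cells (18.4% and 20.6%). The part of these shifts in the proteasome results was not tested.

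The immunoproteasome genes all fell with OxLDL in both genotypes. Psmb8, the counterpart of Psmb5, stood at 76.3, 70.5 and 73.0 CPM in WT and 110, 80.2 and 90.6 CPM in R150X cells, and at 37.5, 38.7 and 40.7 CPM and 38.8, 39.5 and 42.6 CPM with OxLDL. It was higher in every untreated R150X library than in any WT library, and both genotypes given OxLDL were well below both untreated groups. All 3 rose with genotype in untreated cells, with log2 fold changes of 0.35 for Psmb8, 0.41 for Psmb9 and 0.58 for Psmb10. All 3 fell with OxLDL in WT (-0.91, -0.65 and -0.57) and in R150X cells (-1.21, -0.95 and -1.08), with an adjusted p of at most 4.00e-06. None passed the test between the genotypes under OxLDL.

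Psmb10, the counterpart of Psmb7, was the one gene of these 3 that passed the test of the difference between the OxLDL responses (difference -0.50 ± 0.11, adjusted p = 0.00596). It stood at 65.0, 65.9 and 65.1 CPM in WT and 111, 91.8 and 90.2 CPM in R150X cells, and with OxLDL at 45.4, 41.7 and 44.6 CPM and 42.6, 44.5 and 51.7 CPM. The genotypes were apart when untreated and overlapped with OxLDL. Psmb8 and Psmb9 differed in the same direction (-0.30 each, adjusted p = 0.138 and 0.151). Both passed without R150X replicate 2 (adjusted p = 0.0193 and 0.0373). Per kilobase, the ratio of Psmb5 to Psmb8 was 3.37 ± 0.17 (SD, n = 3) in WT, 3.71 ± 0.21 in R150X, 7.56 ± 0.24 in WT with OxLDL and 7.98 ± 0.32 in R150X with OxLDL. That of Psmb6 to Psmb9 was 5.99 ± 0.24, 6.83 ± 0.64, 12.4 ± 0.85 and 13.7 ± 0.23. The ratio of Psmb7 to Psmb10 was 0.405 ± 0.020, 0.322 ± 0.015, 0.480 ± 0.026 and 0.488 ± 0.059. Each ratio was higher in every OxLDL library than in any untreated library of the same genotype, and no test was made of the ratios. Their size depends on the length used, here that of all annotated exons, but their order between libraries does not. Over all libraries Psmb8 averaged 18.2 CPM per kb of annotated exon and 32.3 per kb of the longest transcript, and Psmb5 89.4 by both.

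**Figure D5:**
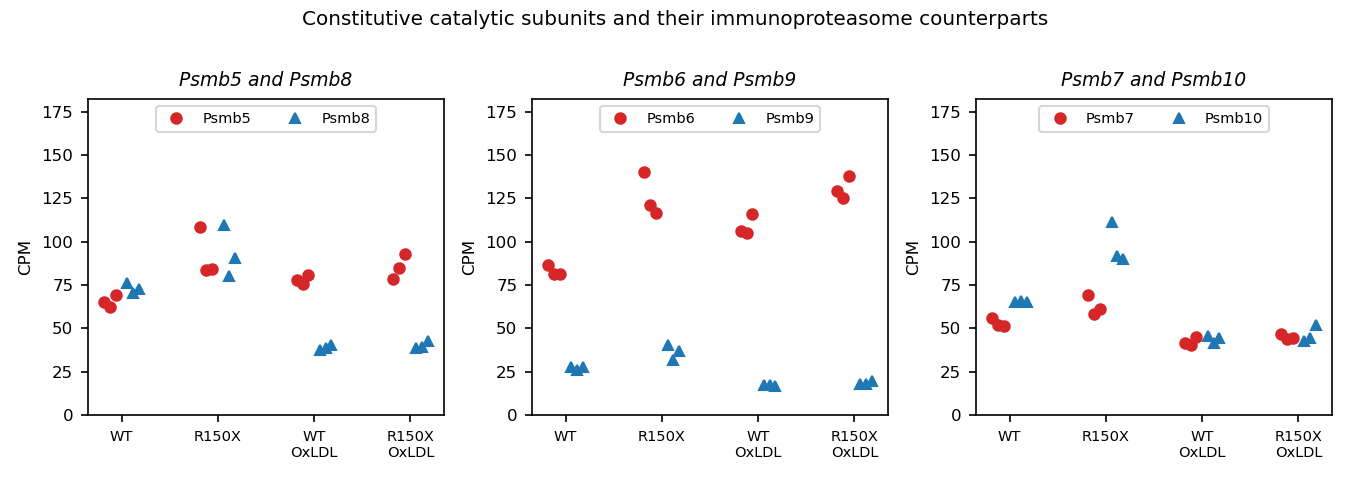
Level (CPM, vertical axis from 0) of Psmb5, Psmb6 and Psmb7 (red circles) and of their immunoproteasome counterparts Psmb8, Psmb9 and Psmb10 (blue triangles) in each library, by group. The triangles drop with OxLDL in both genotypes, to 38.8, 39.5 and 42.6 CPM for Psmb8 in R150X libraries, while the circles of Psmb5 with OxLDL lie between 75.8 and 93.2 CPM.

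Other genes of the pathway were counted from lists of related genes, to be read against all genes tested, of which 18.1% rose and 14.8% fell with genotype in untreated cells, 6.10% and 6.92% under OxLDL, 22.7% and 23.1% with OxLDL in WT, and 18.4% and 20.6% with OxLDL in R150X cells. Each list is small, so that a count of 1 or 2 genes says little about it. Of the proteins that bind the core particle to open it, Psme1 and Psme2, the interferon-induced PA28 activator, fell with OxLDL in WT (log2 fold changes -0.58 and -1.71) and in R150X cells (-0.79 and -1.98), and both rose with genotype in untreated cells (0.30 and 0.65). In the list of 4 activators and the inhibitor Psmf1, 2 rose with genotype in untreated cells and none passed under OxLDL, while 4 fell and 1 rose with OxLDL in WT and 2 fell in R150X cells. Of the ubiquitin receptor Adrm1 and the small subunit Sem1, both rose with genotype in untreated cells (0.25 and 0.52), and Adrm1 rose with genotype under OxLDL (0.25) and fell with OxLDL in both genotypes (-0.22 in each). These last 3 calls of Adrm1 were each lost when certain single libraries were left out. The call with genotype under OxLDL was lost without WT OxLDL replicate 1 (adjusted p = 0.0859) or R150X OxLDL replicate 3 (0.0541). That with OxLDL in WT was lost without WT OxLDL replicate 1 (-0.19, adjusted p = 0.055), and that in R150X cells without R150X replicate 1 (-0.12, adjusted p = 0.0566). Of 5 assembly chaperones of the core, Pomp (0.41) and Psmg4 (0.41) rose with genotype in untreated cells, none passed with genotype under OxLDL or with OxLDL in WT, and 2 fell with OxLDL in R150X cells. Psmg4 no longer passed with the length trend taken off (0.23, adjusted p = 0.156), on leaving out R150X replicate 1 (0.071) or on leaving out WT replicate 3 (0.0944). Pomp, which matures the core particle, stood at 77.3, 78.7 and 86.5 CPM in WT and 119, 97.9 and 105 CPM in R150X cells, and its OxLDL response passed the test of the difference between the genotypes (-0.33 ± 0.09, adjusted p = 0.0295). That call was lost by library size alone (0.111) and without WT replicate 1 (0.0863), WT replicate 2 (0.0824), WT OxLDL replicate 2 (0.0643), WT OxLDL replicate 3 (0.0613), R150X OxLDL replicate 1 (0.0766) or R150X OxLDL replicate 2 (0.0536).

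Of the 6 regulators of proteasome genes, 1 rose with genotype in untreated cells, 1 rose and 1 fell under OxLDL, 2 rose and 2 fell with OxLDL in WT, and 1 rose and 2 fell in R150X cells. The single rise in untreated cells is 16.7% of the list, near the 18.1% of all genes. Nfe2l1 and Nfe2l2 had opposite differences between the genotypes' OxLDL responses. Nfe2l1 stood at 333, 324 and 325 CPM in WT and 248, 241 and 260 CPM with OxLDL, a fall without overlap (log2 fold change -0.39 ± 0.05, adjusted p = 1.32e-06). In R150X cells it stood at 310, 303 and 323 CPM and 276, 288 and 309 CPM with OxLDL and did not pass (-0.10 ± 0.05, adjusted p = 0.116), and the difference was 0.29 ± 0.07 (adjusted p = 0.0121). Nfe2l2 stood at 226, 223 and 222 CPM in WT and 249, 251 and 246 CPM with OxLDL, and at 275, 274 and 267 CPM in R150X and 228, 227 and 217 CPM with OxLDL, so that OxLDL libraries were above the untreated ones in WT and below them in R150X cells. It rose with OxLDL in WT (0.15 ± 0.04, adjusted p = 0.00645, lost by library size alone with 0.487 and with no filter on low counts with 0.0623) and fell in R150X cells (-0.28 ± 0.04, adjusted p = 2.02e-05), with a difference of -0.43 ± 0.06 (adjusted p = 8.33e-05). Across all alternatives both differences passed, with an adjusted p of at most 0.0454. Among the other regulators, Ddi2, the protease that activates the Nfe2l1 protein, rose with OxLDL in WT (0.26) and in R150X cells (0.33).

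Of 6 genes of proteins that act at the proteasome, 3 rose with genotype in untreated cells and 2 under OxLDL, among them Zfand5 (log2 fold changes 0.40 and 0.33), which stimulates the proteasome, and the deubiquitinase gene Usp14 (0.21 and 0.18). The call of Usp14 in untreated cells was lost by library size alone (adjusted p = 0.0771) and without WT replicate 3 (0.0513), and that under OxLDL without any of the 6 libraries but WT OxLDL replicate 2 (0.0662 to 0.118). Only Txnl1 of these 6 fell with OxLDL, in WT (-0.22) and in R150X cells (-0.41). Of 16 genes of ubiquitin itself and of the shuttling of tagged proteins, 6 rose with genotype in untreated cells, 2 rose under OxLDL, 2 rose and 5 fell with OxLDL in WT, and 1 rose and 8 fell in R150X cells. The 2 rises in WT are 12.5% of the list, below the 22.7% of all genes. Of 8 heat shock genes, 1 rose and 2 fell with genotype in untreated cells, 3 fell under OxLDL, 1 rose and 5 fell with OxLDL in WT, and 6 fell in R150X cells. The single rises are 12.5% of the list, below the 18.1% and 22.7% of all genes in those comparisons. Hspa1b, an inducible chaperone, fell in all 4 comparisons (-0.45, -0.67, -0.85 and -1.06).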

How the data were processed

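Bulk RNA sequencing of 12 libraries was used. The authors deposited raw counts per Ensembl gene as whole numbers, 14838969 to 18222868 per library, so that 3 counts stood for 0.158 to 0.209 CPM. Per the submitters' processing notes, FastQC, HISAT2, featureCounts and DESeq2 were used with mm10 or GRCm38, in versions not given in the sources used here; neither is the strand setting or annotation release given.

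Symbols, coordinates and transcript lengths came from the GENCODE M21 annotation of GRCm38, which held 54495 of 54532 identifiers; the 37 others held 0.00357% of counts and stayed in the fits. Promoter windows came from RefSeq. One edgeR 4.0.16 quasi-likelihood model in R 4.3.3, with 1 coefficient for each of the 4 groups, filterByExpr, TMM scaling and no covariate, tested 15338 genes in 5 comparisons. The Benjamini-Hochberg threshold was 0.05. The fit was checked on simulated data. Fold changes are log2. CPM values use TMM-scaled totals.

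Alternatives were other scalings (DESeq2's size factors, library size alone, upper quartile), DESeq2 1.42.0, no filter or at least 1 CPM in 3 libraries, only the groups compared, a replicate block, each library left out, and, chosen after seeing the data, a lowess trend on transcript length taken off. The members and lists were chosen with earlier results of these data known. Named were the proteolytic subunits, and in each comparison up to 5 called members per direction by adjusted p and the one of largest fold; of the pathway lists, up to 2 called genes per list and comparison, the immunoproteasome genes, Nfe2l1 and Nfe2l2. Lists covered subunit roles, immunoproteasome, Adrm1 and Sem1, assembly chaperones, activators, bound proteins, regulators, ubiquitin, heat shock genes, and markers of macrophages, neutrophils, stroma, dendritic, T and NK, B and erythroid cells. Psmb11 was below the filter. Members that share exon bases with another gene (10) and Rps27a, which has near-identical copies, are uncertain. Some single-gene values are not reported here.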

Additional observations from a re-analysis of the deposited data

Results flagged for a closer look

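The 7 genes listed here were flagged because their OxLDL response passed the interaction term of edgeR's quasi-likelihood test (R150X minus WT, on the log2 scale, Benjamini-Hochberg adjustment). Of all genes tested, 5.19% were called negative and 3.13% positive by that term. Among short genes of at least 40 CPM, 24.3% were called negative. Of the 36 members tested, 2 (5.56%) were called, so their number was near the share of all genes. For Psmb6 the difference was -0.34 (adjusted p = 0.0282), and for Psma4 -0.29 (0.0286). For the maturation factor gene Pomp it was -0.33 (0.0295), which did not pass in 7 of the alternatives (adjusted p up to 0.111), and the calls of Psmb6 and Psma4 were lost in 7 and 8. For Psmb10 of the immunoproteasome it was -0.50 (0.00596), for Nfe2l1 0.29 (0.0121) and for Nfe2l2 -0.43 (8.33e-05). For Rps27a, which encodes a fusion of ubiquitin and a ribosomal protein, it was -1.93 (0.0163). Rps27a ranged from 94.9 to 311 CPM within WT with OxLDL and from 90.5 to 263 CPM within R150X with OxLDL, and its interaction did not pass with DESeq2 (adjusted p = 0.0867) or without WT OxLDL replicate 3 (0.0636).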

How the results depend on the processing

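With R150X against WT in untreated cells, 27 members rose, 12 by library size alone, 16 with the length trend taken off and 17 to 28 with 1 library left out. The genotype comparison under OxLDL gave 2 rises, 4 with the length trend taken off and 1 to 2 with 1 library left out. For OxLDL in WT the 22 falls came to 13 to 19 with 1 library left out, and for OxLDL in R150X the 2 rises came to 1 to 2. The 2 negative interaction calls became 0 by library size alone and with the length trend taken off, 4 with the replicate block (Psma2 and Psmb1 were added) and 0 to 5 with 1 library left out. Same-numbered libraries deviated together only weakly (r from -0.0418 to 0.162 over 18 pairs, 2 above 0.1), and the numbers were not treated as pairs. Between WT and R150X libraries of the same treatment, r for the same number ran from 0.0347 to 0.162. In each of those pairs it was above the r of that WT library with the other numbers. Some sharing by number between the genotypes is therefore possible, and the replicate block was the only alternative that allowed for it. No other count of members moved by more than 1.5 times, under any alternative run. The members' medians kept their sign throughout. By library size alone, the median of all genes shifted by -0.11 for OxLDL in WT. The members' median less that of all genes was -0.20 with either scaling. Library size alone also lowered the share of all calls that were higher, from 55.0% to 36.1% for genotype in untreated cells and from 49.6% to 31.6% for OxLDL in WT, and raised it from 37.6% to 66.5% in the interaction.

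Of single named genes under the alternatives, 1461 values kept their direction and side of the threshold, 67 lost a call, 10 gained one and 2 changed sign: Psmb5 with OxLDL in R150X without R150X replicate 1, and Psmb10 with genotype under OxLDL without R150X OxLDL replicate 3. With 1 library left out these ran from -0.17 to 0.028 and from -0.011 to 0.13. Counts of the pathway lists moved by more than 1.5 times in 104 of 1280 cases, mostly counts of few genes. The causes were not tested. Depth was no limit for the 31 subunits, which held at least 591 counts in each library; Psma8, Psmc3ip and Psmb11 are near the floor.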
